A study of Mus musculus with 40 samples.

Results

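Apoe, Apoc1 and Apoc2 are 3 neighbouring genes of mouse chromosome 7, taken here by their symbols from a table of 15958 genes. Their transcripts were measured by bulk RNA-seq in 40 libraries of male C57BL/6 wild-type mice that had a sham operation or small bowel resection (SBR) at 8 weeks of age. The labels give the resection as 50 to 60% of the small bowel, and the study's methods give a larger extent. All sham mice received vehicle, and the SBR mice received vehicle or WUSTL0717, an orally given agonist of the liver X receptors (LXR) described as restricted to the gut. Gavage was daily at 30 mg/kg, began 3 weeks after surgery and went on for 7 weeks, and every mouse was kept on liquid diet after surgery. Duodenum gave 3 sham vehicle, 4 SBR vehicle and 4 SBR WUSTL0717 libraries. Ileum downstream of the anastomosis gave 3, 4 and 4 libraries in the same order, and liver gave 5, 8 and 5. There was no sham group on WUSTL0717, so the effect of the agonist without resection was not measured.

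Apolipoprotein E, the product of Apoe, is the ligand by which remnant lipoproteins are taken up through receptors on the cell surface, and it also accepts cholesterol from cells. Apolipoprotein C1 (Apoc1) hinders that uptake and inhibits cholesteryl ester transfer protein, which mice lack, and apolipoprotein C2 (Apoc2) is the obligate cofactor of lipoprotein lipase. The liver makes most of the circulating apolipoprotein E, whereas macrophages and adipocytes make it locally. LXR are nuclear receptors for oxysterols, and in macrophages and fat the Apoe, Apoc1, Apoc4 and Apoc2 genes are known LXR targets that share distant enhancers.

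On the GRCm38 build all 4 genes lie on the minus strand, in the order Apoc2, Apoc4, Apoc1 and Apoe with rising coordinates. Apoc2 (ENSMUSG00000002992) spans chr7:19671579-19677941, Apoc1 (ENSMUSG00000040564) spans chr7:19689481-19692660 and Apoe (ENSMUSG00000002985) spans chr7:19696109-19699188. No exonic base of Apoe or Apoc1 is shared with another gene of the GENCODE annotation. Of the 813 exonic bases of Apoc2, 646 (79.5%) are also exonic in the read-through gene Gm44805, which joins Apoc4 to Apoc2. Only reads assigned to 1 gene were counted, so the Apoc2 values rest mainly on the remaining bases, and they were read with that limit.

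RefSeq promoter entries matched 2 of the 3 genes, Apoe and Apoc2, and not Apoc1. The 250 bases before their starts (GRCm38.p6, minus strand) are shown because nuclear receptors such as LXR bind copies of the half-site AGGTCA. Capitals mark AGGTCA in Apoc2 (chr7:19677942-19678191) and its shorter core GGTCA in Apoe (chr7:19699189-19699438), where the longer form was not matched. Apoe has 3 start windows in RefSeq; the one at the start of the gene given above is shown, and neither AGGTCA nor GGTCA was in the other 2.
Apoe: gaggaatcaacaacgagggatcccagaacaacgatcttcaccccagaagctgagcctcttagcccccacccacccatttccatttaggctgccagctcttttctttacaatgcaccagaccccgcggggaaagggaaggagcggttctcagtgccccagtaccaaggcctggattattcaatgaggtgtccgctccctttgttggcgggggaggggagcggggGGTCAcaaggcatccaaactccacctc
Apoc2: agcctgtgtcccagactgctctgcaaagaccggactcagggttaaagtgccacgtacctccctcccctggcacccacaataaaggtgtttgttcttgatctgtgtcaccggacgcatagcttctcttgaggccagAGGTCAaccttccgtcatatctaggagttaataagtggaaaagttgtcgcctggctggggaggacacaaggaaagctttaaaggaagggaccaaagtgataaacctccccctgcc
AGGTCA was searched on both strands and every match of it contains GGTCA. It was found in 14% of 32851 promoter windows of the same length, and GGTCA in 35.2%. The paired element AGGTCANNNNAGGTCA was in neither sequence and in 0.0152% of all windows. A match is a run of letters, not a binding site.

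Values are log2 TPM (a transcript's share of a library, scaled for its length) after a batch correction by the authors, in which intestine was 1 batch and liver the other. That correction brought the means of intestine and liver to within 1 log2 unit of each other for 99.4% of genes, so levels were compared between duodenum and ileum but never between intestine and liver, and no gene was set against another by level. Fabp6, the ileal bile acid-binding protein, was at 8.15 ± 0.24 (SD, n = 4) in SBR vehicle ileum and at -0.74 ± 0.51 (SD, n = 4) in SBR vehicle duodenum. Depth per library is unknown. One ileal SBR WUSTL0717 library (replicate 2) stood apart in hepatocyte genes: albumin (Alb) was at 12.70 there and between 8.47 and 10.13 in the other 10 ileal libraries. One liver SBR vehicle library (replicate 2) had the lowest Apoe and Apoc1 of all liver libraries. In a bulk sample, fewer cells of a type and less RNA per cell cannot be told apart.

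**Figure D1:**
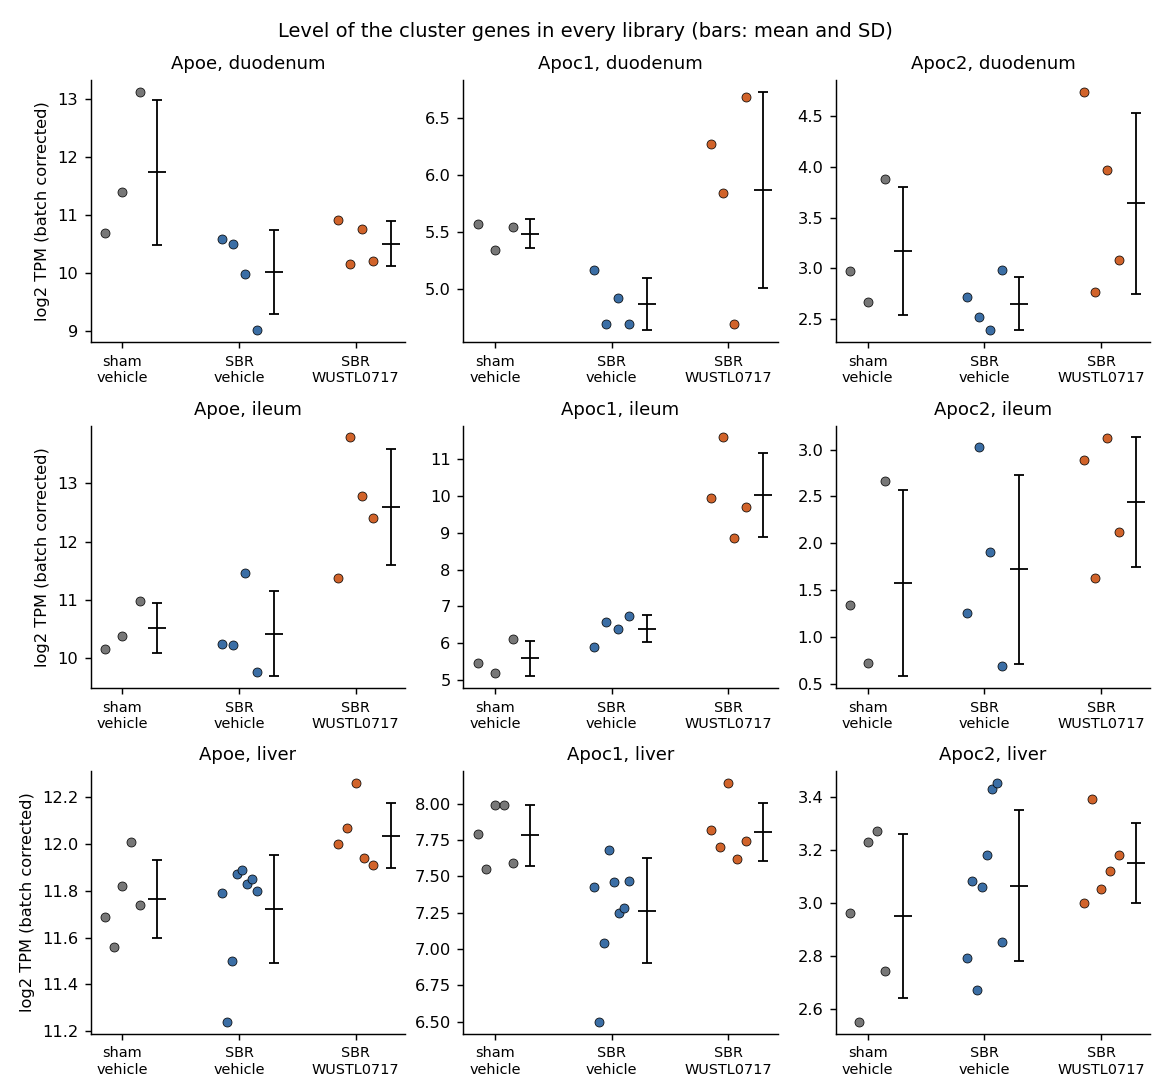
Level of Apoe, Apoc1 and Apoc2 (log2 TPM after batch correction, own scale in each panel) in every library of 3 tissues; each point is 1 library and the bars are mean and SD. In ileum, the 4 SBR WUSTL0717 libraries lie between 8.85 and 11.58 for Apoc1, above all other ileal libraries.

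In ileum, WUSTL0717 was accompanied by a large rise of Apoc1. Apoc1 was at 5.46, 5.20 and 6.13 in the sham vehicle libraries, at 5.89, 6.58, 6.39 and 6.75 in SBR vehicle, and at 9.95, 11.58, 8.85 and 9.69 in SBR WUSTL0717. Every library on the agonist lay above every other ileal library. Apoc1 was 12.3-fold higher in SBR WUSTL0717 than in SBR vehicle, a log2 fold change of 3.62 (SE 0.49, 95% interval 2.55 to 4.68), with a limma adjusted p of 0.0203. It was 1 of the 11 genes called of 15766 tested (0.0698%) and had the second highest log2 fold change of all genes tested. Groups did not overlap for 3.83% of the genes tested. The exact two-sided permutation test gave p = 0.0286, the smallest possible with 4 libraries against 4. The call was lost without any 1 of the 4 SBR vehicle libraries or without SBR WUSTL0717 replicate 4, where the log2 fold change was 3.45, 3.68, 3.61, 3.73 and 3.73 and the limma adjusted p 0.0754, 0.0962, 0.0683, 0.0528 and 0.0519. It was also lost when the compared groups were fitted alone (adjusted p = 0.0943), with an unmoderated two-sample test (0.557) and with a replicate block (0.278).

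Apoe moved the same way in ileum but did not pass the test. Its values were 10.16, 10.39 and 10.99 in sham vehicle, 10.24, 10.23, 11.46 and 9.76 in SBR vehicle, and 11.38, 13.79, 12.78 and 12.41 in SBR WUSTL0717. On the agonist, 3 of 4 libraries lay above all SBR vehicle libraries and the remaining one lay just under the highest. The log2 fold change was 2.17 (SE 0.52, 95% interval 1.04 to 3.30), with an unadjusted p of 0.00122 and a limma adjusted p of 0.377, and the exact permutation p was 0.0571.

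Apoc2 was not distinguishable between the ileal groups. It was at 1.34, 0.73 and 2.67 in sham vehicle, 1.26, 3.03, 1.91 and 0.69 in SBR vehicle, and 2.89, 1.63, 3.12 and 2.12 in SBR WUSTL0717. The groups overlapped widely, and the log2 fold change of agonist against vehicle was 0.72 (SE 0.54, 95% interval -0.46 to 1.90; limma adjusted p = 0.911). Leaving out 1 library moved it between 0.37 and 1.15.

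Against the sham libraries, Apoc1 in SBR WUSTL0717 ileum was 21.5-fold higher, a log2 fold change of 4.42 (SE 0.53; limma adjusted p = 0.00219), where 2.16% of genes tested were called. That call was lost with an unmoderated two-sample test (adjusted p = 0.135) and with a replicate block (0.105). Apoe was 4.22-fold higher with no overlap between the groups, but its limma adjusted p was 0.0841, and it was called without SBR WUSTL0717 replicate 1, at 2.48 (limma adjusted p = 0.0439). Groups did not overlap for 13.2% of genes in that comparison. Between SBR vehicle and sham vehicle none of the 3 passed the test: the log2 fold changes were 0.81 for Apoc1 (limma adjusted p = 0.817), -0.09 for Apoe (0.997) and 0.14 for Apoc2 (0.995), with 0.349% of genes called.

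**Figure D2:**
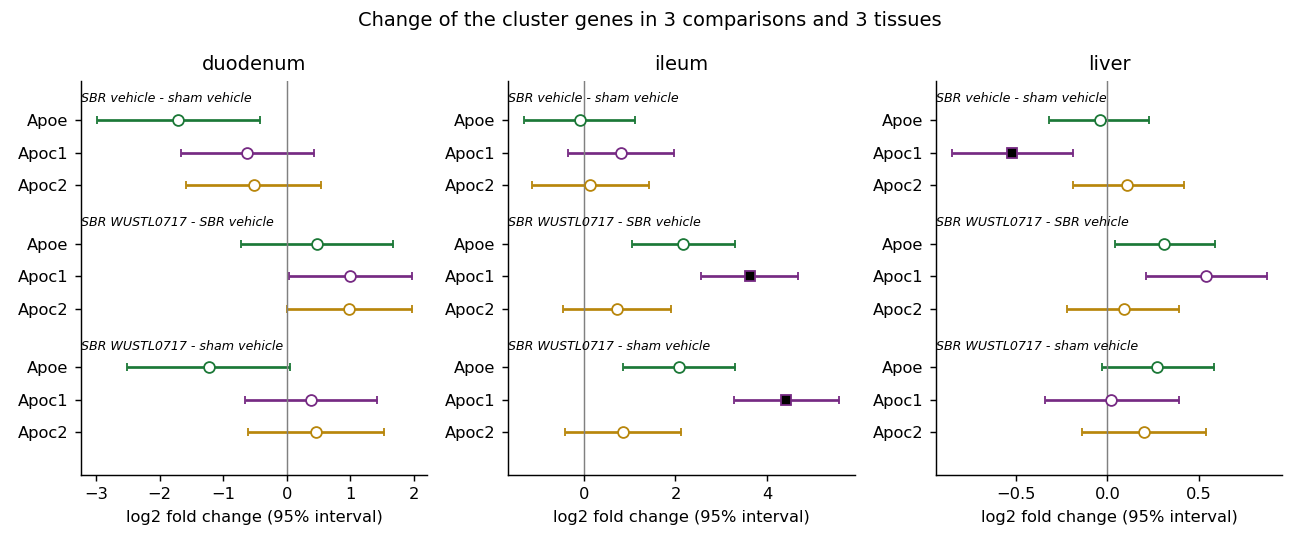
Log2 fold change with its 95% interval for each gene in the 3 comparisons of groups, by tissue, with filled squares where the limma adjusted p was under 0.05. In ileum, Apoc1 is called in both comparisons with SBR WUSTL0717, at 3.62 and 4.42, and in liver it is called between SBR vehicle and sham vehicle, at -0.52.

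Adipocyte genes, a list chosen after the values were seen and not tested as a list, had higher means in ileum on the agonist. The genes whose pattern was most like that of Apoc1 over the 22 intestinal libraries, each region centred on its mean, were Cyp2e1 (Pearson r = 0.879), Pnpla3 (0.873) and Thrsp (0.865), followed by the adipocyte genes Fabp4 (0.862) and Adrb3 (0.861), both named after their values were seen. These points share region and treatment, and without ileal SBR WUSTL0717 replicate 2 the first 3 values were 0.802, 0.793 and 0.777. A list of 12 adipocyte genes was therefore put together after the values were seen. Of these, 8 have a row, and Adipoq, Plin1, Lep and Retn were not analysed here. The list is not particular to adipocytes in these tissues. Its member Cidec was at 6.75 to 7.34 in SBR vehicle duodenum, above its 4.23 to 5.61 in SBR vehicle ileum. In liver Cidec was at 4.08 to 4.53 in sham vehicle and at 6.6 to 7.65 in SBR vehicle. The 8 include Thrsp, Fabp4 and Adrb3, which are among the 5 genes most like Apoc1, so their levels partly restate that likeness. The mean level of the 8 was 1.87 to 4.27 in sham vehicle, 3.81 to 4.46 in SBR vehicle and 5.16 to 7.07 in SBR WUSTL0717 ileum. All 8 had a higher mean on the agonist than in SBR vehicle, and for 5 of them every library on the agonist was above every SBR vehicle library, as for 3.83% of all genes. Without those 3 genes, all 5 others had a higher mean and 2 of them did not overlap. Fabp4, the fatty acid-binding protein of adipocytes and macrophages, was at 2.33 to 3.03 in SBR vehicle and at 3.54 to 5.75 in SBR WUSTL0717. The same list ran from 2.32 to 2.97 in SBR vehicle and 2.57 to 3.19 in SBR WUSTL0717 duodenum, and from 3.59 to 4.23 and 4.22 to 4.70 in liver, with 7 of 8 genes at a higher mean on the agonist in each. Every library on the agonist was above every SBR vehicle library for 0 of the 8 genes in duodenum and for 1 in liver. In liver the groups did not overlap for 1.54% of all genes. Higher means of this list were therefore seen in all 3 tissues, while most of the 8 lacked overlap in ileum only.

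The mean of 11 hepatocyte markers was 6.41 to 6.47 in sham vehicle, 6.32 to 7.14 in SBR vehicle and 7.07 to 8.91 in SBR WUSTL0717 ileum, with the highest value in replicate 2, and 9 of the 11 had a higher mean on the agonist than in SBR vehicle. Cyp2e1, the gene most like Apoc1 in intestine, is among the 11, so their levels also partly restate that likeness. The mean of 18 macrophage markers was 3.8 to 3.98, 3.59 to 4.32 and 3.50 to 4.64 in the same order, and 9 of the 18 had a higher mean on the agonist. Without replicate 2 the Apoc1 change was 3.10 (limma adjusted p = 0.0188). The part of adipocytes, hepatocyte transcripts or macrophages in the Apoc1 and Apoe values was not tested.

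**Figure D3:**
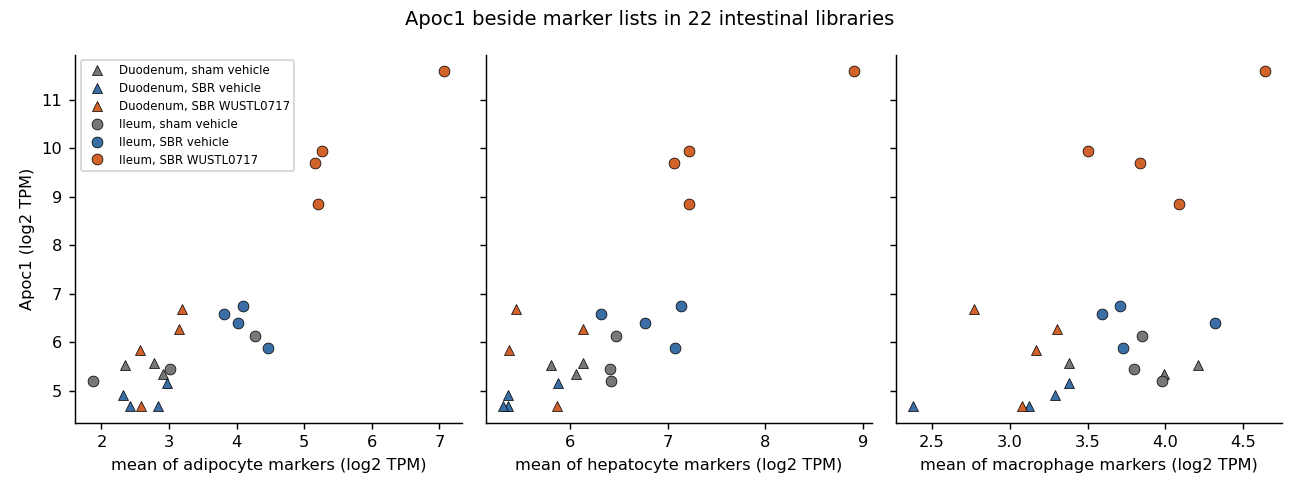
Apoc1 in the 22 intestinal libraries against the mean level of adipocyte, hepatocyte and macrophage marker genes (all log2 TPM; triangles duodenum, circles ileum, colours by group). The 4 ileal SBR WUSTL0717 libraries have adipocyte means of 5.16 to 7.07, above all other intestinal libraries, and their macrophage means run from 3.50 to 4.64, around the 3.59 to 4.32 of SBR vehicle ileum.

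In duodenum the agonist was not accompanied by a change of the 3 genes that passed the test, while 0.272% of genes did. Apoc1 was at 5.57, 5.34 and 5.54 in sham vehicle, 5.17, 4.69, 4.92 and 4.69 in SBR vehicle and 6.27, 5.84, 4.69 and 6.68 in SBR WUSTL0717. In 3 duodenal libraries it stood at the same lowest value, 4.69, which 5.55% of genes show in at least 2 intestinal libraries and which may be a TPM of 0 moved by the batch correction. Its log2 fold change of agonist against vehicle was 1.00 (SE 0.45, 95% interval 0.04 to 1.97; limma adjusted p = 0.909). Apoc2 gave 0.99 (limma adjusted p = 0.942) and Apoe 0.48 (limma adjusted p = 1). Leaving out 1 library moved Apoc1 between 0.73 and 1.40, Apoc2 between 0.62 and 1.28 and Apoe between 0.15 and 0.67, and none was called.

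Duodenal Apoe had a lower mean after resection without passing the test. It was at 10.69, 11.39 and 13.12 in sham vehicle, at 10.59, 10.50, 9.99 and 9.02 in SBR vehicle and at 10.92, 10.15, 10.76 and 10.21 in SBR WUSTL0717. The log2 fold change of SBR vehicle against sham vehicle was -1.71 (SE 0.60, 95% interval -2.99 to -0.42), with an unadjusted p of 0.0129 and a limma adjusted p of 0.278. Leaving out 1 library moved it between -2.23 and -1.01. The groups did not overlap for Apoe or Apoc1, as for 9.66% of genes, and limma called 0% of genes at an adjusted p under 0.05 against 2426 at an unadjusted p under 0.05. The median log2 fold change of all genes was -0.36 here, and the mean of macrophage markers was 3.38 to 4.21 in sham vehicle and 2.38 to 3.38 in SBR vehicle; their part in the Apoe values was not tested. SBR WUSTL0717 against sham vehicle called 0.737% of genes and none of the 3.

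Apoc1 and Apoe also differed between the regions. Duodenal and ileal libraries may come from the same mice, which the labels do not say, and the fit took them as independent. Apoc1 was lower in duodenum than in ileum by 1.53 (limma adjusted p = 0.00969) in SBR vehicle and by 4.15 (limma adjusted p = 8.98e-07) in SBR WUSTL0717 on the log2 scale, and the regions did not overlap in either. Apoe was lower in duodenum by 2.08 in SBR WUSTL0717 (limma adjusted p = 0.00398), again with no overlap. The background is large: 56.9% of genes were called in SBR vehicle and 55.9% in SBR WUSTL0717, groups did not overlap for 43.4% and 47.8%, and the median over all genes was -0.98 and -0.95. When libraries were centred on their medians, the SBR vehicle difference of Apoc1 was -0.60 and that of Apoe in SBR WUSTL0717 was -1.2, and both lost their call. In sham mice, with 14.6% called, none of the 3 passed. Apoc2 was the gene with a higher mean in duodenum in every group, by 1.59, 0.93 and 1.2, for sham, SBR vehicle and SBR WUSTL0717, none of which passed (limma adjusted p = 0.0742, 0.126 and 0.052). That depended on the scaling: centring gave 2.04, 1.86 and 2.08 and quantile normalization 1.99, 1.74 and 1.9, all of them called, and a replicate block called Apoc2 in sham and SBR WUSTL0717 at 1.59 and 1.2 (limma adjusted p = 0.0151 and 0.0174).

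Whether the agonist acted differently in the 2 regions was tested by the difference of the changes. It was 2.62 for Apoc1 (unadjusted p = 0.000794, limma adjusted p = 0.601) and 1.69 for Apoe (limma adjusted p = 1), with 0.0251% of genes called. For Apoc2 it was -0.27 (limma unadjusted p = 0.713). For the change with resection, it was 1.42 for Apoc1 (limma adjusted p = 0.379), 1.61 for Apoe (0.391) and 0.66 for Apoc2 (0.697), with 0.0754% called. Leaving out 1 library moved these between 1.23 and 1.69, 0.92 and 2.14, and 0.23 and 1.21.

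In liver, resection went with less Apoc1. Apoc1 was at 7.79, 7.55, 7.99, 7.99 and 7.59 in sham vehicle, at 6.5 (lowest), 7.36 (median) and 7.68 (highest) in SBR vehicle, and at 7.82, 7.70, 8.14, 7.62 and 7.74 in SBR WUSTL0717. In 7 of 8 SBR vehicle libraries it was below every sham library. The log2 fold change of SBR vehicle against sham vehicle was -0.52 (SE 0.16, 95% interval -0.85 to -0.19; limma adjusted p = 0.0130; exact permutation p = 0.00777). In that comparison 41.9% of genes were called, and the median over all genes was 0.25. Without replicate 2 the change was -0.41 (limma adjusted p = 0.00661). Over the 11 alternatives that kept every library it ran from -0.82 to -0.41 and was called in all 11. Of 11 hepatocyte markers, 5 were called lower and none higher in the same comparison, with a list median of -0.39, while 10 of 11 stellate and fibroblast markers and all 5 cholangiocyte markers were called higher. Their part in the Apoc1 value was not tested. Apoe was at 11.24 (lowest), 11.81 (median) and 11.89 (highest) in SBR vehicle and at 11.69, 11.56, 11.82, 12.01 and 11.74 in sham vehicle, a log2 fold change of -0.04 (limma adjusted p = 0.813), which centring on library medians turned to -0.35 (limma adjusted p = 0.00285). Apoc2 gave 0.11 (limma adjusted p = 0.558), which the same centring turned to -0.19.

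On the agonist, Apoc1 and Apoe had higher means in liver than in SBR vehicle without passing the test. All 5 Apoe values of SBR WUSTL0717, 12.00, 12.07, 12.26, 11.94 and 11.91, were above all 8 of SBR vehicle, as for 1.54% of genes. The log2 fold change of Apoe was 0.31 (SE 0.13, 95% interval 0.04 to 0.59; limma adjusted p = 0.208), and the exact permutation p of 0.00155 is the smallest possible. Apoc1 gave 0.54 (SE 0.16, 95% interval 0.21 to 0.87; limma adjusted p = 0.0616; exact permutation p = 0.00311) and was called without SBR vehicle replicate 2, SBR vehicle replicate 4 or SBR WUSTL0717 replicate 4, at 0.43, 0.60 and 0.58 (limma adjusted p = 0.0365, 0.0373 and 0.0479). Centring on library medians called both Apoc1 (0.54, limma adjusted p = 0.00297) and Apoe (0.32, 0.0146), and quantile normalization and library weights called Apoc1 alone, at 0.45 and 0.41 (0.00555 and 0.00585). Apoc2 gave 0.09 (limma adjusted p = 0.851). In this comparison 4.12% of genes were called, and 10 of 11 hepatocyte markers had a higher mean on the agonist (list median 0.27, none called), whose part was not tested. Against sham, SBR WUSTL0717 called 28.7% of genes, and Apoc1 was at 0.02 (limma adjusted p = 0.935), Apoe at 0.27 (0.153) and Apoc2 at 0.20 (0.340). Centring turned all 3, to -0.28, -0.03 and -0.1, and called none.

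Apoc4, whose role is little known, and the genes around the cluster were read as neighbours. Apoc4 gave 0.45 for agonist against vehicle in ileum (limma adjusted p = 0.918). Tomm40, the mitochondrial import channel gene next to Apoe, gave 0.10 (limma adjusted p = 0.985). Of 15 neighbours tested, 14 had a higher mean in ileum on the agonist and none was called, against a median of 0.38 for the list and 0.00 over all genes. In liver, Relb, an NF-kappa-B subunit, and Bcam, a basal cell adhesion molecule, were 2 of the 8 neighbours called higher after resection, by 1.66 (limma adjusted p = 1.09e-07) and 1.63 (limma adjusted p = 5.92e-07), and both fell on the agonist, by 0.60 (limma adjusted p = 0.0293) and 0.67 (limma adjusted p = 0.0335) on the log2 scale. They were the 2 of 15 called in that comparison, where 4.12% of all genes were called. In the resection comparison 41.9% of all genes were called, 89.3% of them higher, a share that was 41.3% after centring.

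**Figure D4:**
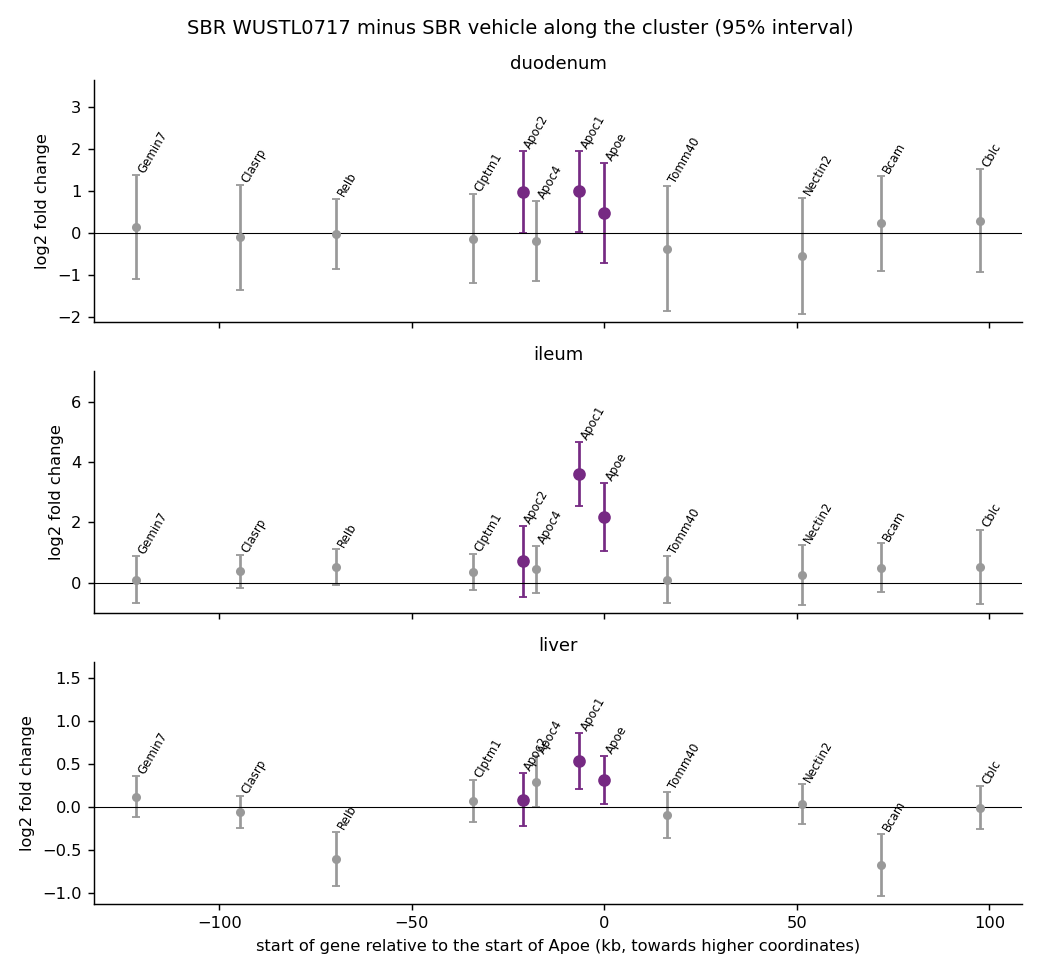
Log2 fold change with its 95% interval of SBR WUSTL0717 against SBR vehicle for each gene within 100 kb of the cluster, by distance of its start from that of Apoe in kb, with Apoe, Apoc1 and Apoc2 in purple. In ileum, Apoc1 (3.62) and Apoe (2.17) stand above their neighbours, while Apoc4 is at 0.45.

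Other genes of the pathway were counted over lists. Of 18 genes of the LXR list, 17 had a higher mean in ileum on the agonist and 5 were called, against 0.0698% of all genes, with a list median of 1.68; without SBR WUSTL0717 replicate 2, 17 still had a higher mean and 2 were called, with a median of 1.30. Abca1, which exports cholesterol to HDL, rose by 2.79 on the log2 scale (limma adjusted p = 0.0148), Scd1, a fatty acid desaturase, by 3.09 (limma adjusted p = 0.0198) and Abcg5, a sterol transporter subunit, by 2.68 (limma adjusted p = 0.0203). In duodenum, 15 of 18 had a higher mean and 2 were called, against 0.272% of all genes, Scd1 at 6.34 and Abca1 at 3.55. In liver 15 of 18 had a higher mean and 1 was called, Nr0b2, a repressor of bile acid synthesis, at 1.16 (limma adjusted p = 0.0345). That count is near the 4.12% of all genes called in liver on the agonist. Abca1 was at 0.07 there (limma adjusted p = 0.878).

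Among 16 genes of a list of other apolipoproteins, which also holds the editing enzyme Apobec1, none was called in ileum on the agonist, and Apoc3, an inhibitor of lipolysis, had the lowest p, at 2.36 (limma adjusted p = 0.406). In liver on the agonist, 14 of 16 had a higher mean and 1, Saa4, was called at 0.55 (limma adjusted p = 0.0161), again near the 4.12% of all genes. After resection, 3 (Apobec1 among them) were called higher and 4 lower in liver, near the 41.9% of all genes, including Apoa4 at 2.62 (limma adjusted p = 6.98e-08) and Saa4 at -1.17 (limma adjusted p = 3.94e-07). Among receptors and regulators of apolipoprotein E uptake, Sdc1, a heparan sulfate proteoglycan, was called higher in ileum after resection, at 2.11 (limma adjusted p = 0.0172). It was not the only gene of the list called in that comparison, where 0.349% of all genes were called. On the agonist, none of the 12 tested was called in ileum. In liver, 7 of 12 had an adjusted p under 0.05 after resection, all higher, among them Sorl1 at 1.38 and Hspg2 at 1.14, where 41.9% of all genes were called and 89.3% of those calls were higher (41.3% after centring on library medians).

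Of 14 genes of triglyceride lipolysis, Lpl, the enzyme that Apoc2 activates, was at 1.71 in ileum on the agonist (limma adjusted p = 0.539). Lpl rose in liver after resection by 1.80 (limma adjusted p = 6.98e-08). In that liver comparison 41.9% of all genes were called, and 89.3% of those calls were higher (41.3% after centring on library medians). Cd36, a fatty acid transporter, was the member called in duodenum on the agonist, at 2.81 (limma adjusted p = 0.0167), where 0.272% of all genes were called. In HDL remodelling, 2 of 12 were called in ileum on the agonist, against 0.0698% of all genes. These were Abca1, given above, and Abcg1, at 2.30 (limma adjusted p = 0.0274). Nr1h3, the LXR alpha gene, was at 1.13 in ileum (limma adjusted p = 0.539), 0.56 in duodenum and 0.23 in liver. The 3 genes most like Apoe in intestine were Clstn3 (r = 0.823), Tagln2 (0.823) and Nudt18 (0.822), and Sfn (0.791), Gm4665 (0.745) and Bag3 (0.729) were most like Apoc2. Over the 18 liver libraries they were Nipsnap1, Agmat and Ndufs7 for Apoe (0.964, 0.959 and 0.959), Serpinf1, Lactb and Lap3 for Apoc1 (0.971, 0.969 and 0.966), and Lzts3, Exoc3l2 and Abcc10 for Apoc2 (0.855, 0.822 and 0.819). Apoe and Apoc1 correlated at r = 0.67 in intestine and 0.80 in liver, and Apoe and Apoc4 at 0.28 and 0.94. Without liver SBR vehicle replicate 2 the liver values for the 9 most alike genes ran from 0.837 to 0.955. These values describe libraries that share treatment.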

How the data were processed

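Per the labels and the study's methods, total RNA was depleted of ribosomal RNA and sequenced as paired reads. The submitters' processing notes name STAR 2.7.9a and featureCounts 2.0.3 with GRCm38. The authors deposited log2 TPM values after ComBat batch correction. The study's methods name TMM factors for the gene counts and do not say that the TPM were scaled by them. The pseudocount and the ComBat settings are not given in the sources used here. No count of reads was used, so depth is unknown. Columns of the table were matched to libraries by their names.

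Genes with a mean of at least 1 log2 TPM in a tissue were fitted in limma 3.58.1 (R 4.3.3) with an intensity trend, 3 groups per tissue, or 6 groups over the 22 intestinal libraries, and adjusted over all genes by Benjamini-Hochberg. Exact permutation tests used scipy 1.17.1. The script was tested on simulated data with 200 changed genes. Genes were named if they were members, list genes called (the 3 smallest p where more than 3 were), genes within 100 kb, the 3 most alike in pattern, and 5 partner genes. The members and lists were chosen with earlier results of these data known. Replicates are separate libraries, and where nothing says that they are separate mice, p-values measure the spread between libraries. Alternatives tried were pseudocounts of 5 and 0.1, no filter and a mean of 3, library centring, quantile normalization, no trend, library weights, an unmoderated two-sample test, the compared groups alone, a replicate block and leaving out each library. One gene of the lists is not reported here.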

Additional observations from a re-analysis of the deposited data

Results flagged for a closer look

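The estimated change of Apoc1 with resection differed between the regions by 1.42 on the log2 scale, higher in ileum than in duodenum. An exact permutation of the groups within each region gave p = 0.00327. That permutation assumes no effect of resection in either region, so it does not by itself test a difference between the regions. The limma test of that difference gave an unadjusted p of 0.0619 (95% interval -0.08 to 2.93) and an adjusted p of 0.379. In ileum 3 of 4 SBR vehicle libraries were above every sham library, and in duodenum all 4 were below. Of the 4 duodenal SBR vehicle libraries, 2 are at the lowest value, 4.69. In 21 checks (3 genes in each of 7 groups of 4 to 8 libraries) no library stood apart; chance gives about 1 in 20 checks.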

How the results depend on the processing

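The 42 results of the 3 genes (14 comparisons) kept direction and side of the threshold under every alternative in 20 cases. Apoc1 in ileum, agonist against SBR vehicle, stayed at 3.62 but lost its call with the two-sample test (3.62, adjusted p = 0.557), with the compared groups alone (3.62, 0.0943) and with the replicate block (3.62, 0.278); leaving out 1 library gave 3.10 to 4.01. Against sham it lost its call with the two-sample test (4.42, adjusted p = 0.135) and the replicate block (4.53, 0.105). The cause was not tested.

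The labels do not say whether libraries with the same replicate number share a mouse, and the data did not settle it: correlations of same-numbered deviations ranged from -0.32 to -0.016 in ileum between the agonist and SBR vehicle, from 0.069 to 0.45 between duodenum and ileum of sham mice, and no comparison had every pair over 0.1. Of these sham pairs, 2 of 3 numbers correlated best with their own, a hint from the data and not from the design. The replicate block turned Apoe between SBR vehicle and sham ileum to 0.13 and gave Apoc2 in duodenum minus ileum 1.59 (sham) and 1.2 (SBR WUSTL0717), both called. It called 0 genes in ileum, agonist against vehicle, where the main fit called 11.

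Centring libraries on their medians gave Apoe in liver -0.35 after resection and 0.32 on the agonist, both called, and -0.03 for agonist against sham; Apoc1 0.54 (called) and, against sham, -0.28; Apoc2 -0.19 and, against sham, -0.1. Between regions it gave Apoc1 0.35 in sham and -0.60 in SBR vehicle, Apoe 0.54 in SBR vehicle and -1.2 in SBR WUSTL0717, and Apoc2 2.04, 1.86 and 2.08 (all called). Quantile normalization gave Apoe -0.11 in duodenum (agonist) and 0.0 in ileum (resection); in liver Apoc1 0.45 (called) and, against sham, -0.23, and Apoc2 -0.2 after resection and -0.1 against sham; between regions Apoc1 0.25 in sham and -0.97 in SBR vehicle, and Apoc2 1.99, 1.74 and 1.9 (called). Library weights called Apoe in duodenum after resection (-1.72), in ileum against sham (1.91) and in liver against sham (0.24), turned liver Apoe after resection to 0.06, gave Apoc1 in liver 0.41 (called), called Apoc2 between regions at 1.58 and 1.18, and gave 0.26 for the difference of the agonist's change in Apoc2. A pseudocount of 5 called Apoc2 between regions in SBR WUSTL0717 at 0.81. Leaving out 1 library gave Apoe after resection in ileum -0.44 to 0.14, Apoc2 -0.29 to 0.69 and Apoe against sham 1.68 to 2.48. In liver the range was -0.10 to 0.03 for Apoe after resection, 0.43 to 0.60 for Apoc1 on the agonist and -0.06 to 0.07 for Apoc1 against sham. Between regions it was -0.31 to 0.16 for Apoc1 in sham, and for Apoc2 1.17 to 2.13 in sham, 0.58 to 1.36 in SBR vehicle and 0.83 to 1.49 in SBR WUSTL0717. Apoc2 was called in 1 of 6 of these fits in sham, 1 of 8 in SBR vehicle and 4 of 8 in SBR WUSTL0717. For the difference of the agonist's change in Apoc2 the range was -0.61 to 0.17.

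The filter at a mean of 3 left out Apoc2 in intestine. Centring changed the share of calls that were higher from 89.3% to 41.3% in liver after resection, from 35.3% to 58.7% for agonist against vehicle and from 96.8% to 54.3% against sham, and between regions from 26.2% to 58.3% in sham, 11.9% to 53.3% in SBR vehicle and 12.8% to 53.2% in SBR WUSTL0717. Without leaving out a library, the number of genes called ranged over the alternatives from 0 to 2579 in duodenum after resection (0 in the main fit), 0 to 98 on the agonist (41), 5 to 276 in ileum after resection (55), 0 to 19 on the agonist (11), 0 to 773 against sham (341) and 0 to 3132 in liver on the agonist (655).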
